A study of Oncorhynchus mykiss with 38 samples.

Results

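Of the 9024 rainbow trout cDNA clones with values, 114 had about the same signal in immature testis and in isolated spermatogonia and a lower signal in stage V testis, isolated spermatocytes and isolated spermatids. They were chosen on the mean log2 signals of 5 groups. Spermatogonia and stage I testis had to differ by less than 0.4 (log2), the lower of these means had to exceed the highest of stage V testis, spermatocytes and spermatids by at least 0.5, and stage I had to reach 8.17. These thresholds were met by 124 clones, and 10 of these clones were left out by name: 7 of the 9 haemoglobin clones of the array, and 1 clone each of *piwil2*, *gapdh* and *tfa*. Because these values picked the members, the levels of those 5 groups are given below as a description and carry no test. Tests were restricted to stages IIa, IIb, IIIb and VIII, whose values the choice did not use. The choice did require stage V to be lower than stage I, and stages IIa, IIb and IIIb lie between them.

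The study followed spermatogenesis in male trout on nylon membranes spotted with cDNA clones and hybridised with 33P-labelled targets made from total RNA, with 38 arrays in 9 groups. Whole testes came from stage I (n = 5), with slowly dividing type A spermatogonia alone, stage IIa (n = 4), with rare dividing type B spermatogonia, and stage IIb (n = 4), in which these had become more numerous. Stage IIIb (n = 3) added many spermatocytes and stage V (n = 4) spermatids, while stage VIII (n = 3) was the spawning testis, filled mostly with spermatozoa. Per the paper, stages I to IIb were sampled in February and March, stages IIIb and V in April and May, and stage VIII in October. Stage and season therefore cannot be told apart when stages IIb, IIIb and VIII are compared. Isolated spermatogonia (n = 6) were elutriated from pooled testes of immature fish and could hold some Sertoli cells, whereas spermatocytes (n = 6, with some B spermatogonia and secondary spermatocytes) and spermatids (n = 3) came from pooled maturing testes. The labels record male fish and give no treatment, strain or age. Each array was hybridised with 1 sample, but whether the samples of a group stem from separate fish or cell preparations is not given in the sources used here. The spread among arrays of a group may thus in part be technical. A p-value rests on that spread, pooled for each clone over all 9 groups and not taken from the compared stages alone.

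Spermatogonia are the mitotic germ cells of the testis, and type A cells include those that renew the germ line. In fish they divide inside cysts formed by Sertoli cells and enter meiosis after a number of mitoses. As the testis matures, germ cells come to make up most of the organ. At spawning the cysts have opened, leaving spermatozoa, the supporting Sertoli and Leydig cells and a few spermatogonia. A transcript found in spermatogonia and in the immature testis may thus belong to the germ cells, or to any other cell type carried into both kinds of sample.

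Few members could be named here, although the paper linked most of its clones to a fish gene. The platform annotation and the part of the study's clone table used here, 229 entries, assigned no gene to 104 of the 114 clones, 4 had only a locus number, and 6 had a gene symbol. These 6 were *ctsk*, for cathepsin K, a lysosomal protease that cleaves collagen in mammals, *ctsc*, for cathepsin C, which in mammals activates serine proteases of leukocyte granules, *canb1*, for the regulatory B subunit of the calcium-dependent phosphatase calcineurin, *tmek*, *arhgef7a*, for an exchange factor of the small GTPases Rac and Cdc42, and *LASS2*, for a ceramide synthase that in mammals makes ceramides with very long acyl chains. The study's own annotation called the match of the *LASS2* clone not confident. None of the 20 lists of pathway genes and cell type markers matched against the array contained a member. Only the 6 members with a symbol could have matched, and listed genes that met the thresholds, such as haemoglobin and *piwil2*, had been left out by name. The absence therefore does not describe what the members are.

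On each array the median of all clones was 8.166 (log2), which the study took as its background, and quantile normalization by the authors makes every value relative to the other clones of the same array. The median member stood at 9.08 in stage I, 9.16 in stage IIa and 8.98 in stage IIb. It was lower after meiosis had begun, at 8.48 (stage IIIb) and 8.24 (stage V), and higher again at spawning (stage VIII, 8.99). This does not mean that most members regained their level: clone by clone, 80 of 114 were lower in stage VIII than in stage IIb (median difference −0.32). Among the isolated fractions the median member reached 9.07 in spermatogonia, 8.07 in spermatocytes and 8.21 in spermatids. The choice placed all 114 members above the array median in stage I, whereas 44 were below it in stage IIIb, 53 in stage V, 66 in spermatocytes, 54 in spermatids and 23 in stage VIII. The group of highest mean was the isolated spermatogonia for 35 members, stage VIII for 29, stage IIa for 22, stage I for 20 and stage IIb for 8. The choice barred stage V, spermatocytes and spermatids from being the highest group. The same tally over all clones was not made, so the 29 members highest at spawning have no share to be set against.

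One array stood apart. The median member had 8.71 in spermatid replicate 2, against 8.05 and 7.85 in spermatid replicates 1 and 3, and the median SD of the members was 0.56 in spermatids, against 0.17 to 0.30 in the other groups. The spermatid mean is part of the choice of members: 135 clones were chosen without spermatid replicate 2, including all 114, while 83 were chosen without spermatid replicate 3, of which 81 were members. In each of the other groups the median member stayed within a narrower range, such as 9.04 to 9.17 in stage I and 8.82 to 9.20 in spermatogonia, the lowest of these being replicate 6.

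The thresholds cut through a continuous range. The members with the smallest gap above the low groups were tcbk0049.o.15 (0.5012) and *arhgef7a* (0.5033), and the clones just outside were tcaa0001.d.11 (0.4995) and tcav0003.g.13 (0.499). Spermatogonia and stage I differed by 0.3946 for tcay0030.j.21 and 0.3932 for 1rt96b07_b_a04, just inside, and by 0.4014 for tcbk0060.l.19 and 0.4087 for tcba0016.p.23, just outside. The stage I mean was 8.1824 for tcbk0025.d.10 and 8.2008 for tcba0016.a.14 inside, and 8.1242 for tcay0025.i.19 and 8.0162 for tcbk0028.a.02 outside.

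For comparison, 508 clones met the same requirements on stage I, stage V, spermatocytes and spermatids but were lower in spermatogonia than in stage I by at least 0.4. In 22 of these the spermatogonia mean also exceeded the low groups by at least 0.5. The mirror set, higher in spermatogonia by at least 0.4, held only 7 clones.

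**Figure D1:**
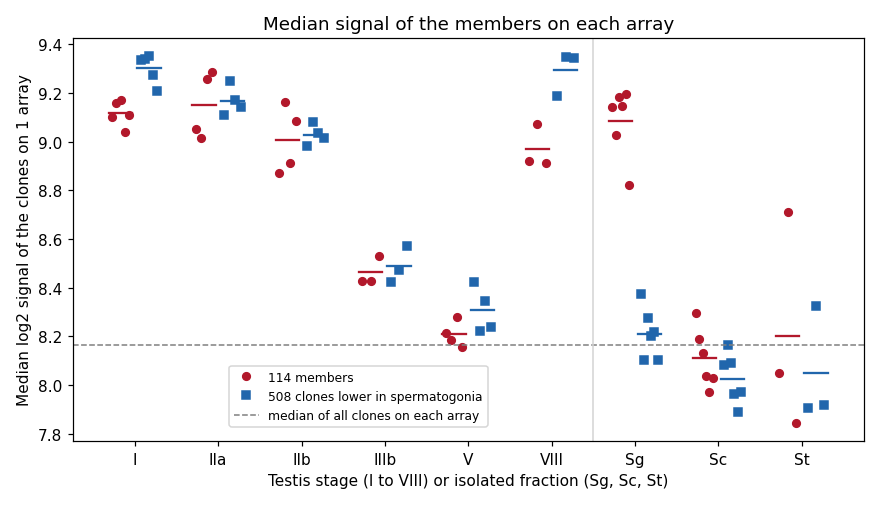
Median log2 signal of the 114 members (circles) and of the 508 clones lower in spermatogonia (squares) on each of the 38 arrays, by testis stage and isolated fraction (Sg spermatogonia, Sc spermatocytes, St spermatids). Short bars are means over arrays and the dashed line is the median of all clones, 8.166. The members sit between 8.43 and 8.53 in stage IIIb, below every array of stage IIb, and between 8.91 and 9.07 in stage VIII. The comparison clones reach 9.19 to 9.35 there. Taken clone by clone, 80 of the 114 members were below their stage IIb mean in stage VIII.

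The strongest members by stage I signal were tcal0001.o.16 (12.28 ± 0.69, SD, n = 5), tcaa0001.d.14 (12.17 ± 0.17) and tcab0002.c.20 (11.87 ± 0.34). The sources used here assigned no gene to any of them. On the stage IIb arrays tcaa0001.d.14 read 11.92, 12.30, 11.56 and 12.00, and on those of stage IIIb it read 10.94, 10.87 and 10.96. In stage VIII the same clone stood at 11.29, 11.22 and 11.33, between the other stages and overlapping neither. tcab0002.c.20 followed it closely (r = 0.90 over deviations from the group means on the 38 arrays) and stood at 11.96 ± 0.24 in stage IIb (n = 4), 10.94 ± 0.14 in stage IIIb (n = 3) and 11.40 ± 0.18 in stage VIII (n = 3). Neither clone passed a test between stages in limma. The difference between stages IIIb and IIb was −1.02 for tcaa0001.d.14 (SE 0.36, adjusted p = 0.081) and −1.03 for tcab0002.c.20 (SE 0.36, adjusted p = 0.073). The spread behind these SEs was pooled over all 9 groups. For tcaa0001.d.14 the SD was 0.05 in stage IIIb (n = 3) and 1.09 in spermatids (n = 3). The brightest member, tcal0001.o.16, behaved otherwise and is described with the clones that moved with haemoglobin.

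No member passed a test between stages IIa and IIb, when type B spermatogonia multiply. By limma's moderated test at an adjusted p below 0.05, 0 of 114 members were higher or lower in stage IIb (all clones: 0.0111% higher, 0.0332% lower). An unadjusted p below 0.05 was found for 11 of the 114 members and for 544 of the 9024 clones. Of these members, 9 were among the clones, described below, that moved with haemoglobin, and 2 were among the other 103. The largest difference among the named members was that of the locus LOC100136590, which went from 9.91 ± 0.66 in stage IIa to 8.76 ± 0.26 in stage IIb (difference −1.15, SE 0.36, adjusted p = 0.38). The median difference over the members was −0.079.

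Many members fell between stages IIb and IIIb, when spermatocytes appear. Of the 114 members, 35 (30.7%) were lower in stage IIIb than in stage IIb and none was higher, while among all clones 3.11% were lower and 3.92% higher. The difference was below 0 for 112 members, with a median of −0.55 against −0.01 over all clones. On the arrays themselves, 65 members (57.0%) had every stage IIIb value below every stage IIb value, as did 10.6% of all clones. The choice required a drop of at least 0.5 from stage I to stage V, and stages IIb and IIIb lie between them. An excess of falls over all clones was thus partly built in. In whole testis, fewer cells of a type and less RNA per cell cannot be told apart. Of the 508 comparison clones 150 (29.5%) were lower in stage IIIb, with a median of −0.56.

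The largest fall was that of 1rt96b07_b_a04. It read 10.76, 10.46, 10.89 and 10.48 on the 4 stage IIb arrays and 9.28, 8.76 and 9.32 on the 3 stage IIIb arrays. The groups were separated by more than 1 log2 unit, and the fitted difference was −1.52 (SE 0.27, adjusted p = 0.00059). In stage VIII it read 9.56, 9.96 and 9.99, above every stage IIIb array and below every stage IIb array. Its rise from stage IIIb missed the threshold (0.72, SE 0.29, adjusted p = 0.06), and its deficit against stage IIb passed it (−0.81, adjusted p = 0.026) but not without stage IIb replicate 1 (−0.77) or 3 (−0.73) or stage VIII replicate 1 (−0.67).

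The second largest fall was that of 1rt102k16_c_f08, which did not recover. Its stage IIb values were 8.85, 9.28, 9.52 and 9.51, its stage IIIb values 7.97, 7.72 and 8.38 and its stage VIII values 7.45, 7.25 and 8.19. All stage IIIb and stage VIII arrays were below all stage IIb arrays, and these later groups overlapped each other. The difference was −1.26 in stage IIIb (SE 0.27, adjusted p = 0.0029) and −1.66 in stage VIII (SE 0.27, adjusted p = 1.5e-05). In isolated spermatogonia the clone stood at 9.34 ± 0.34 (n = 6), close to its stage I mean of 9.49 ± 0.17 (n = 5).

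The third, tcac0006.d.07, had 10.08 ± 0.13 in stage IIb (n = 4) and 8.89 ± 0.11 in stage IIIb (n = 3), a difference of −1.19 (SE 0.24, adjusted p = 0.0018). It rose again to 9.65 ± 0.30 in stage VIII (0.76 over stage IIIb, SE 0.26, adjusted p = 0.022), a call that was lost without stage IIIb replicate 2 or 3 or stage VIII replicate 2 or 3 (0.63 to 0.74). Between stages IIb and VIII its difference of −0.43 did not pass (adjusted p = 0.19).

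The count of 35 depended on the weighting of arrays and on single arrays. It was 83 with array weights estimated by limma, and 49 in a fit to the 14 arrays of stages IIa, IIb, IIIb and VIII alone. Without spermatid replicate 2 it was 51 of the 135 clones then chosen, and 47 of the original 114. The count was 14 without stage IIIb replicate 2, 21 without stage IIIb replicate 1 or 3, 20 without stage IIb replicate 2 and 22 without stage IIb replicate 4. Markers of other cells moved at the same step. Of the 5 clones of the spermatid list 4 were higher in stage IIIb (mean over the list 7.76 to 8.02 on the stage IIb arrays and 8.92 to 9.04 in stage IIIb). That list averaged 9.53 in isolated spermatocytes and 9.44 in isolated spermatids, so it does not tell these cells apart. The 1 spermatocyte marker clone was also higher, by 1.76. Of the 7 Leydig cell clones 4 were lower (8.97 to 9.30, then 8.28 to 8.48). The germ line list, with 4 clones, went from 9.21 to 9.33 in stage IIb to 8.87 to 8.98 in stage IIIb, with 2 clones lower. The 3 Sertoli cell clones went from 9.17 to 9.73 to 8.77 to 8.95, with 1 lower. The part of these cells in the fall was not tested.

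At spawning some members were higher and others lower, as was so among all clones. Between stage IIIb and stage VIII, 35 members (30.7%) rose and 5 (4.39%) fell, against 14.4% and 16.1% of all clones. Set against stage IIb, the last stage before meiosis, 18 members (15.8%) were higher in stage VIII and 38 (33.3%) were lower, against 12.1% and 13.5% of all clones, and 58 passed in neither direction. Values on the arrays did not overlap for 24 members above stage IIb (21.1%, all clones 15.4%) and for 38 below it (33.3%, all clones 17.5%). The median difference from stage IIb was −0.32 over the members and 0.21 over the 508 comparison clones, of which 153 (30.1%) were higher and 53 (10.4%) lower; the contrast between these 2 sets of clones was not tested. Over the 4 stages not used for the choice, 58 members varied by the F-test at an adjusted p of at most 0.005 (50.9%, all clones 19.4%). This share too was partly built in by the drop required from stage I to stage V. The choice also required a high stage I signal, and stage IIb differed from stage I by a median of −0.082 over the members. An excess of members below stage IIb at spawning, or rising from stage IIIb, could therefore also be partly built in.

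**Figure D2:**
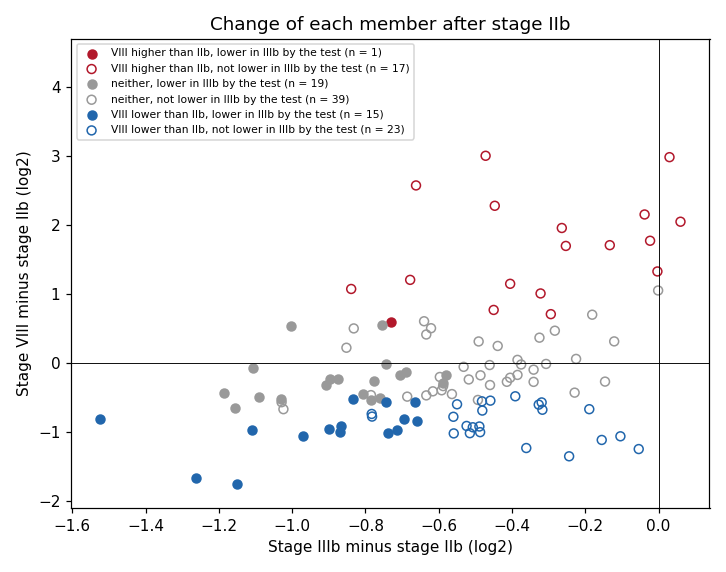
Difference of each of the 114 members from stage IIb, in stage IIIb (horizontal axis, log2) and in stage VIII (vertical axis, log2), each point 1 clone. Colour gives the test of stage VIII against stage IIb and filled points passed the test for a fall to stage IIIb; nearly all points lie left of 0, and they spread from −1.75 to 3.01 on the vertical axis.

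The 38 members that ended below stage IIb had fallen by a median of 0.91 in stage VIII. Of these, 15 had already passed the test for a fall to stage IIIb, 5 fell further between stages IIIb and VIII, and none rose between them. The 38 were taken for being below stage IIb at spawning, so a low stage VIII signal was built in. The lack of rises from stage IIIb was partly built in too. Both tests against stage IIb also share its 4 arrays. The median of the 38 was 9.20 in stage IIb, then 8.55 (stage IIIb) and 8.33 (stage VIII), and 9.36 in isolated spermatogonia. The lowest relative to stage IIb was tcaa0001.a.03, which read 9.06, 9.03, 8.74 and 8.69 in stage IIb, 7.88, 7.59 and 7.71 in stage IIIb and 7.35, 7.13 and 6.92 in stage VIII. Each later group lay wholly below the one before, and stage VIII was below the array median throughout. Its difference was −1.15 in stage IIIb (SE 0.22, adjusted p = 0.0012) and −1.75 in stage VIII (SE 0.22, adjusted p = 3e-07).

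None of the 5 members that fell after stage IIIb had passed the test for a fall to stage IIIb. Their differences between stages IIIb and IIb were still all below 0 (−0.05 to −0.36). In 1rt91p23_b_h12 every stage IIIb value was below every stage IIb value. They were 1rt94j09_b_e05, 1rt74j11_b_e06, 1rt91p23_b_h12, 1rt69l24_d_f12 and tcbk0049.o.15, of which the first and the last were named by the rule and the others were singled out after their values were seen. 1rt94j09_b_e05 had 10.04, 10.53, 10.49 and 10.40 in stage IIb, 10.10, 10.39 and 9.87 in stage IIIb, and 8.96, 9.20 and 8.88 in stage VIII. Stages IIb and IIIb overlapped, and stage VIII lay below both. The difference between stages VIII and IIIb was −1.11 (SE 0.24, adjusted p = 0.00048) for this clone and −0.87 to −1.19 for the other 4 (adjusted p 2.4e-05 to 0.0015).

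*tmek* was among the 38, by a smaller margin. Its stage IIb values of 8.79, 8.65, 8.46 and 8.71 and its stage VIII values of 8.02, 8.11 and 8.11 did not overlap, and its stage IIIb values were 8.51, 8.28 and 8.21. The difference between stages VIII and IIb was −0.57 (SE 0.19, adjusted p = 0.024), and it missed the threshold when any array of stage VIII, or stage IIb replicate 1 or 4, was left out (−0.53 to −0.59).

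The 58 members that passed in neither direction included 19 that had fallen to stage IIIb and 17 that rose between stages IIIb and VIII, and their medians were 9.12 in stage IIb, then 8.55 (stage IIIb) and 9.01 (stage VIII). *canb1* was one of them. It read 9.10, 9.16, 9.002 and 9.03 in stage IIb, 9.01, 8.56 and 8.49 in stage IIIb and 9.24, 9.13 and 8.98 in stage VIII. Stage IIIb replicate 1 was as high as stage IIb and the other stage IIIb arrays were lower. Its rise to stage VIII passed the test (0.43, SE 0.16, adjusted p = 0.033), though not without stage IIIb replicate 2 (0.37) or 3 (0.33) or stage VIII replicate 1 (0.37) or 2 (0.42), and the preceding difference of −0.39 did not (adjusted p = 0.11).

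Both cathepsin clones passed no test. *ctsc* had 9.31, 9.32, 10.15 and 10.07 in stage IIb, 9.31, 8.66 and 9.41 in stage IIIb and 8.76, 9.64 and 9.74 in stage VIII. These 3 groups overlapped, and the difference between stages IIIb and IIb was −0.59 (SE 0.28, adjusted p = 0.23). The array carried 3 clones of *ctsc*, and the others, 1rt128a17_a_a09 and tcbi0010.n.06, did not meet the thresholds and also passed no test between these stages (−0.39 and −0.63 in stage IIIb against stage IIb). *ctsk* had 8.94 ± 0.13 in stage IIb (n = 4), 8.79 ± 0.27 in stage IIIb (n = 3) and 8.67 ± 0.32 in stage VIII (n = 3), and none of its 4 differences passed (adjusted p from 0.44 to 0.96). In the isolated cells *ctsk* stood at 9.14 ± 0.35 in spermatogonia (n = 6) and *ctsc* at 9.61 ± 0.20 (n = 6), values that the choice of members fixed near those of stage I.

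**Figure D3:**
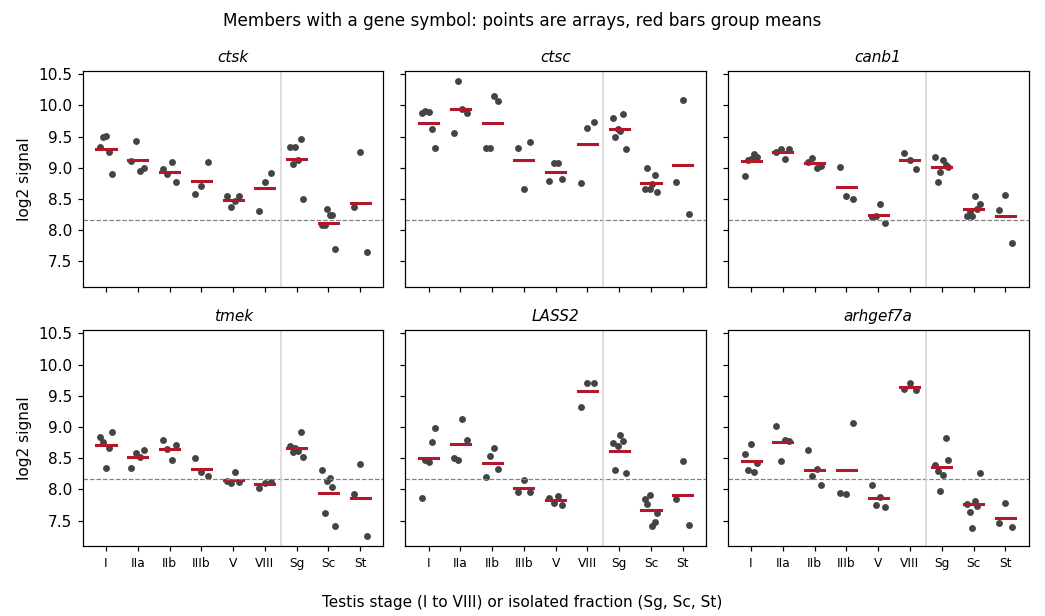
Log2 signal of the 6 members with a gene symbol by testis stage and isolated fraction (Sg, Sc, St); points are arrays, red bars are group means and the dashed line is the median of all clones, 8.166. *LASS2* and *arhgef7a* reach 9.32 to 9.70 and 9.59 to 9.70 in stage VIII, above their other stages, and in *ctsk* and *ctsc* the spermatid arrays spread from 7.66 to 9.26 and from 8.26 to 10.09.

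The 18 members that exceeded stage IIb at spawning had a median rise of 1.70. Their median was 8.50 in stage IIb, then 8.17 (stage IIIb) and 10.13 (stage VIII), against 8.79 in stage I and 8.76 in spermatogonia. These 18 were taken for exceeding stage IIb at spawning, so a high stage VIII signal was built in. Stage IIIb was near or below stage IIb for all members, so a rise from stage IIIb was largely built in too. All 18 passed the test for that rise. One of them, tcay0017.i.12, had passed the test for a fall to stage IIIb (−0.73, adjusted p = 0.015). That clone was singled out after its values were seen. Spermatogonia exceeded stage I, within the limit of 0.4, for 5 of the 18, for 27 of the 38 members that ended lower and for 18 of the 58 others. They did so for 50 of all 114 members and, without that limit, for 4846 of the 9024 clones. The choice used this difference, so these counts are a description and carry no test.

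The largest rise was that of 1rt25j21_b_e11. It read 7.92, 8.49, 9.09 and 8.75 in stage IIb, 8.29, 7.81 and 8.18 in stage IIIb and 11.33, 11.94 and 11.44 in stage VIII. Stages IIb and IIIb overlapped, and stage VIII was more than 2 log2 units above both. The difference was 3.48 from stage IIIb (SE 0.29, adjusted p = 2.2e-11) and 3.01 from stage IIb (SE 0.27, adjusted p = 2.1e-10). tcbk0025.d.10 rose with it, from 8.03 ± 0.26 in stage IIb (n = 4) and 7.36 ± 0.17 in stage IIIb (n = 3) to 10.60 ± 0.16 in stage VIII (n = 3), by 3.24 from stage IIIb (SE 0.28, adjusted p = 4.3e-11). These 2 clones deviated together from their group means (r = 0.82 over 38 arrays).

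*LASS2* read 8.20, 8.53, 8.66 and 8.32 in stage IIb, 7.96, 8.15 and 7.95 in stage IIIb and 9.32, 9.70 and 9.70 in stage VIII. Stage IIIb lay just below stage IIb and below the array median, and stage VIII above both with no overlap. The rise was 1.55 from stage IIIb (SE 0.23, adjusted p = 2.1e-06) and 1.15 from stage IIb (SE 0.21, adjusted p = 0.00011), while the preceding difference of −0.41 did not pass (adjusted p = 0.3).

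*arhgef7a* read 8.63, 8.21, 8.33 and 8.06 in stage IIb, 7.93, 7.92 and 9.06 in stage IIIb and 9.61, 9.70 and 9.59 in stage VIII. Stage IIIb replicate 3 was above every stage IIb array and the other stage IIIb arrays were below them all. The rise was 1.33 from stage IIIb (SE 0.23, adjusted p = 2.4e-05) and 1.33 from stage IIb (SE 0.21, adjusted p = 1.4e-05). Without stage IIIb replicate 3 the former was 1.71.

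Some of the members that rose at spawning moved with haemoglobin, the oxygen carrier of red blood cells and thus a sign of blood in a sample. The mean of the 7 haemoglobin clones left out of the set was highest in stage VIII (12.80 to 12.88 on its 3 arrays), and lower in stage IIb (10.64 to 10.97) and stage IIIb (10.36 to 11.59). In isolated spermatogonia it ranged from 9.71 to 12.06, in spermatocytes from 8.10 to 10.12 and in spermatids from 7.95 to 8.97. The whole red blood cell list has 10 clones, but 9 of them are haemoglobin clones, including those 7, so it adds little beyond haemoglobin. The list averaged 10.25 to 10.51 in stage IIb, 9.99 to 11.02 in stage IIIb and 12.24 to 12.31 in stage VIII, where 8 of its 10 clones were higher than in stage IIb.

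Members were therefore compared with haemoglobin inside the groups, by correlating deviations from the group means over the 38 arrays. For 11 members r was 0.52 to 0.96, and for the other 103 it ran from −0.41 to 0.30, with none in between. Of the 9017 clones other than these haemoglobin clones 42 (0.466%) reached 0.5, and of the 508 comparison clones 1 did. This contrast was partly built in, because the haemoglobin clones averaged here had themselves met the thresholds for members. Their mean was 11.20 in stage I and 10.96 in spermatogonia, against 9.77 in stage V, 9.07 in spermatocytes and 8.43 in spermatids. A clone with the same group pattern would be steered into the members and away from the comparison clones. The 11 comprised *arhgef7a* (0.53), the 4 clones with a locus number and 6 clones without a gene in the sources used here. Of the 11, 10 were among the 18 members higher in stage VIII than in stage IIb. No p is attached to these correlations, because the arrays share their normalization and the cut at 0.5 was set after the values were seen.

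The highest r, 0.96, was that of tcal0001.k.08, annotated as LOC100136207. It had 10.87 ± 0.20 in stage IIb (n = 4), 10.93 ± 0.78 in stage IIIb (n = 3) and 12.92 ± 0.19 in stage VIII (n = 3), a rise of 1.99 from stage IIIb (SE 0.54, adjusted p = 0.0045). In the trout RefSeq annotation 1 gene lies between this locus and the nearest haemoglobin gene. LOC100135790 (clone tcad0004.i.13, r = 0.74) and LOC100136590 (clone tcbk0036.j.06, r = 0.83) are separated from one by 5 and 13 genes, and LOC100135792 (clone tcbk0025.c.19, r = 0.76) has none on its chromosome. Whether any of these 4 loci is itself a haemoglobin gene that was not left out by name was not determined, and it bears on their membership and on their rises at spawning. The last 3 clones deviated together, with r of 0.84 to 0.89 between them.

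LOC100136590 read 8.68, 8.73, 8.50 and 9.11 in stage IIb, 8.65, 8.63 and 9.07 in stage IIIb and 11.31, 12.10 and 11.81 in stage VIII. Stages IIb and IIIb overlapped and stage VIII was far above both. The rise was 2.96 from stage IIIb (SE 0.41, adjusted p = 8.2e-07). A second clone of this locus, tcay0023.i.11, was no member and rose by 1.86 (adjusted p = 4.6e-06). LOC100135790 rose by 2.22 (SE 0.35, adjusted p = 6.5e-06) and LOC100135792 by 2.73 (SE 0.36, adjusted p = 3e-07). tcal0001.o.16 (r = 0.83) was the exception among the 11: it had 11.87 ± 0.38 in stage IIb (n = 4) and 12.93 ± 0.35 in stage VIII (n = 3), and its difference of 1.05 did not pass (SE 0.50, adjusted p = 0.12).

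**Figure D4:**
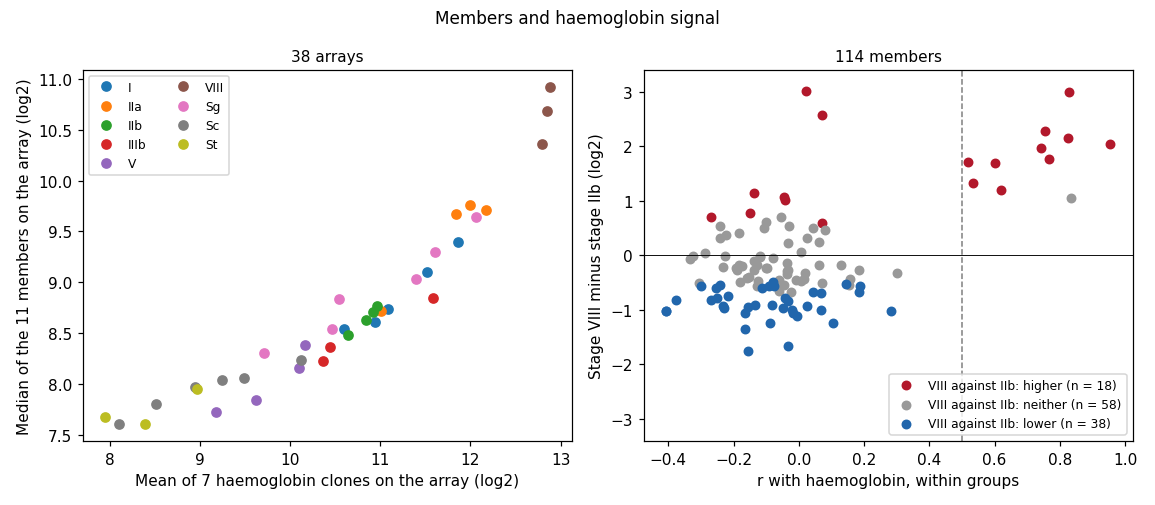
Left, the median log2 signal of the 11 members with r of at least 0.5 against the mean log2 signal of 7 haemoglobin clones on each of 38 arrays, coloured by group; the 3 stage VIII arrays are highest on both axes, at 10.36 to 10.92 and 12.80 to 12.88. Right, for each of the 114 members, the difference between stages VIII and IIb (log2) against its r with haemoglobin within groups, with the dashed line at 0.5; 10 of the 11 clones to its right were higher in stage VIII.

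Without these 11 clones, 103 members remained. The fall to stage IIIb kept all its 35 calls, none of which belonged to the 11. The rise between stages IIIb and VIII went from 35 to 25 members (24.3%, all clones 14.4%). The count above stage IIb went from 18 to 8 (7.77%, all clones 12.1%), while the 38 below stage IIb were unaffected. The 8 were *LASS2*, 1rt25j21_b_e11, tcbk0025.d.10, tcay0017.i.12, tcad0004.k.06, tcay0012.g.02, tcad0002.n.10 and tcbi0012.a.11, with r from −0.27 to 0.07 and differences of 0.60 to 3.01 from stage IIb. The 5 of these that the rule did not name were listed after their values were seen.

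Markers of the other testis cells had their own levels at spawning. The 7 Leydig cell clones averaged 9.81 to 10.55 in stage VIII, against 8.97 to 9.30 in stage IIb, and 4 of 7 were higher by the test. The 3 Sertoli cell clones averaged 9.19 to 9.65 in stage VIII and 9.17 to 9.73 in stage IIb, with 1 higher and 1 lower. The 4 matrix and peritubular cell clones averaged 11.08 to 11.41 in stage VIII and 11.12 to 11.34 in stage IIb, also with 1 higher and 1 lower. The 4 germ line clones averaged 8.44 to 8.49 in stage VIII, against 9.21 to 9.33 in stage IIb and 9.23 to 9.53 in isolated spermatogonia, and 2 of 4 were lower in stage VIII. One clone of that list, *piwil2*, met the thresholds for members and was left out. The part of these cell types in the members' values at spawning was not tested.

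Some members moved as sets across the arrays. Among the 6441 pairs of members the median r of deviations from the group means was 0.29, and 16 pairs reached 0.8, which joined 23 members into 8 sets. Spermatid replicate 2, in which the median member stood high (8.71), enters these correlations, and how far they rest on that array was not tested. The median r between pairs of all clones was not computed. The largest set had 6 clones, with r from 0.45 to 0.88 between them, and included 1rt102k16_c_f08, tcac0006.d.07 and *tmek*. Of its 6 clones 3 were lower in stage VIII than in stage IIb and 3 passed in neither direction. The other sets held 4, 3 or 2 clones, among them the pair tcaa0001.d.14 and tcab0002.c.20 and the pair 1rt25j21_b_e11 and tcbk0025.d.10. Clones of 1 gene, or of genes with related sequences, can hybridise to the same target on a cDNA array, and whether a set stood for 1 gene was not tested.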

How the data were processed

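The deposited table held log2 values of 38 arrays. Per the methods, the authors corrected each spot's signal by dividing it by its vector signal, rescaled it to the median vector signal, took log2 and applied quantile normalization. Of 9216 entries 9024 had values, and 190 clones (2 members) lacked a value on some array and were fitted on the rest. The authors' filter on low vector signal was not applied. Gene symbols came from the platform annotation and from 229 entries of the study's table of clones, of which the rest was not used here.

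limma 3.58.1 (R 4.3.3) fitted 9 group means to all 38 arrays (prior df 7.3, residual df 29). P-values were adjusted by Benjamini-Hochberg over all 9024 clones, with a threshold of 0.05, and 0.005 for the F-test as in the methods. The fit was tried on simulated data, with independent noise of the same size in all groups for a given clone. That trial does not cover the unequal spread of the groups or arrays that deviate together. Same-numbered arrays of stages IIb and IIIb deviated together (r 0.205 to 0.318 over 3 pairs), so a fit with the replicate number as a block was also made. Same-numbered arrays of stages IIIb and VIII also deviated together, more weakly (r 0.077 to 0.238), while differently numbered ones had r from −0.205 to −0.01. Between stages IIa and IIb and between stages IIb and VIII the numbers did not pair arrays (lowest r −0.258 and −0.001).

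Named clones were those with a gene symbol, the 3 largest falls from stage IIb to IIIb, the 3 largest rises from IIIb to VIII, the 3 largest differences in each direction between VIII and IIb, the 3 brightest in stage I and those beside each threshold. Haemoglobin clones were averaged in log2. Members, lists and this rule were chosen with earlier results of these data known. Of 20 lists matched by symbol, most are not described. Those lists matched 0 to 10 clones and held no member.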

Additional observations from a re-analysis of the deposited data

Results flagged for a closer look

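Within groups of 4 to 10 arrays, 3 of 108 tests on the named members found an array farther from the others than Dixon's limit, and chance gives about 1 in 20. In stage I replicate 1, *canb1* was lowest at 8.88 (next 9.13) and 1rt96b07_b_a04 at 9.27 (next 10.17). In spermatogonia replicate 6, 1rt102k16_c_f08 was lowest at 8.70 (next 9.31). All 3 values lie in groups used to choose the members and in no tested comparison.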

How the results depend on the processing

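The set itself moved with its thresholds: 184 clones were members with a gap of 0.4, and 69 when every signal below its array's median was set to that median. Leaving out 1 array gave 83 to 135 members. With array weights, 83 members were lower in stage IIIb than in stage IIb, 96 varied over the 4 stages and 1 differed between stages IIb and IIa, while the floor at the array median gave 2 for the last. With 1 array left out, the counts ran from 14 to 51 for lower in stage IIIb, 27 to 52 for the rise to stage VIII, 14 to 27 and 27 to 46 for higher and lower in stage VIII than stage IIb, 48 to 81 for the F-test and 0 to 0 for stage IIb against IIa. Without the clones that move with haemoglobin, an alternative chosen after seeing the data, 8 members were higher in stage VIII than in stage IIb. That was 7.77% of the 103 members left, against 12.1% of all clones. With the replicate number as a block, 34 members were lower in stage IIIb, 36 rose to stage VIII and 54 varied; the block moved no count by over 1.5 times. A fit to the 14 arrays of stages IIa, IIb, IIIb and VIII, the omission of dim clones and a renewed quantile normalization left every count within 1.5 times. Of 964 values for 22 differences of named members under the alternatives, 0 changed sign and 16, of 4 differences, lost the call. The 104 clones to which the sources used here assigned no gene, and 3 arrays in stages IIIb and VIII, limit what can be said.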
